A study of Mus musculus with 8 samples.

Results

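The plasma protein, complement and coagulation genes are a list of 59 gene symbols that make up most of the protein the liver secretes into blood. They were found by matching the gene names of the deposited table, and 57 of the 59 symbols had a row among its 26520 genes. C5 and C1s had no row under those names. The mouse symbols for these proteins, Hc and C1s1, were in the table and are given below as genes outside the list. By role the 57 genes fell into 13 carrier and transport proteins, 16 protease inhibitors, 12 complement proteins and 16 proteins of coagulation and fibrinolysis.

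Hepatocytes make most of these proteins that circulate in blood. Their mRNAs are translated on ribosomes of the endoplasmic reticulum, and the products leave the cell through the Golgi. Carriers such as albumin and transferrin hold water in the blood vessels and move metals, hormones and fatty acids. Serpins and inter-alpha-trypsin inhibitors block proteases or bind the extracellular matrix. Complement and coagulation factors circulate as inactive precursors that cut and activate one another in turn. Before translation, each mRNA is transcribed, spliced and polyadenylated in the nucleus and then exported through nuclear pores. The series asked how mRNA divides between nucleus and cytoplasm in mammalian tissues.

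PolyA RNA was sequenced from 8 libraries in 4 groups of 2: liver nuclear, liver cytoplasmic, MIN6 nuclear and MIN6 cytoplasmic. Liver came from mice whose strain labels read C57BL/6 and C57BL/7 for the 2 nuclear samples and C57BL/8 and C57BL/9 for the 2 cytoplasmic samples, with no treatment named. MIN6 cells, from a mouse insulinoma, stand in for insulin-secreting beta cells; they were grown with no treatment named in medium with serum and beta-mercaptoethanol. For liver nuclear RNA, the supernatant of lysed nuclei was kept after chromatin had been pelleted, so RNA held on chromatin was not in it; MIN6 nuclear RNA came from whole nuclei spun through sucrose. The labels do not say whether replicates were separate animals or cultures, so p-values measure the spread between these libraries, which may be technical. Fractions were taken from the titles. The MIN6 source field names the opposite fraction, and the nuclear RNAs Neat1 and Meg3 were higher in the libraries titled nuclear (22.5 and 28.6 against 3.05 and 2.68 FPKM for Neat1 in MIN6).

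The values were used as deposited by the authors. No unit is named with them, and they are taken to be FPKM, fragments per kilobase of transcript and per 1000000 fragments. Read counts were not used here because the table holds none. From the steps between low values, the libraries were estimated to hold between 1.06 and 2.11 times 1000000 reads. A gene of 2 kb with 3 reads would stand at 0.387 and 0.289 FPKM in nuclear liver and at 3.61 and 2.64 FPKM in cytoplasmic liver. So 1 read was worth far more FPKM in the cytoplasmic ones. Yet estimated reads were similar, at 1.42 and 1.26 times 1000000 in nuclear and 1.12 and 1.06 times 1000000 in cytoplasmic liver. The deposited values thus did not follow a scale per 1000000 fragments of each library. Ratios between fractions therefore depend on scale, and each is given as deposited, with its change under median-of-ratios scaling where that matters. That scaling moved the median nuclear ratio of all genes tested in liver up by 1.76 (log2), and scaling to estimated reads moved it up by 2.11. Of 6 hepatocyte markers outside the list, all were above 0 in the 4 liver libraries and all 6 were lower in nuclear than cytoplasmic liver, with a median log2 ratio of -4.24. The 7 beta-cell markers were all listed at 0 in liver. Summed red-cell markers were 19.7 and 4.67 FPKM in nuclear and 1674 and 382 FPKM in cytoplasmic liver. Summed markers of liver endothelium were 102 and 84.9 against 124 and 84.4 FPKM, and none of its 5 genes was called as deposited. After median scaling 2 of the 5 were called higher, and under estimated reads 3, beside 14.2% and 20.6% of all genes. As deposited, 4 of 5 Kupffer genes and 3 of 4 stellate and fibroblast genes were called lower, beside 50.2% of all genes. None of these was called lower on the other scales. The part of cell mixture in the ratios of the plasma protein genes was not tested.

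In liver, the plasma protein genes made up a smaller part of the nuclear than of the cytoplasmic RNA. They took 5.86% and 7.14% of the summed FPKM in nuclear replicates 1 and 2, against 23.0% and 22.3% in cytoplasmic replicates 1 and 2. By estimated reads the shares were 8.02% and 8.30% in nuclear and 22.6% and 21.8% in cytoplasmic libraries. These shares are formed within a library and do not depend on scaling between libraries. The fractions did not overlap, but an exact two-sided permutation test of 2 against 2 libraries cannot give a p below 0.33. Fewer cells of a type and less RNA per cell cannot be told apart in such bulk samples.

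Gene by gene, 51 of the 57 genes were called lower in nuclear than cytoplasmic liver by limma on log2(FPKM + 1) at a Benjamini-Hochberg adjusted p under 0.05, and 6 were not called. Among all 10353 genes tested, 50.2% were called lower and 2.93% higher. None of the 57 was called higher, and since all 57 ratios lay below 0, none was higher at an unadjusted p under 0.05 either. The median log2 ratio was -4.04 for the list and -1.64 for all genes tested. Above a mean of 100 FPKM, however, 48 plasma protein genes had a median of -4.23 and the 714 other genes a median of -4.13. In 55 of the 57 genes both nuclear libraries lay below both cytoplasmic ones, as did 71.0% of all genes tested. After median scaling 30 of the 57 were called lower and 1 higher, against 11.4% and 14.2% of all genes. After scaling to estimated reads 22 were called lower and 5 higher, against 7.84% and 20.6% of all genes. The 5 were Itih3, Mug1, Itih1, C6 and C4b, of which Itih1 and C4b were called lower as deposited. Read against the median of all genes, 48 of the 57 lay below it and 7 above it on all 3 scales tried. With 1 liver nuclear library left out, whichever it was, limma called 0 of the 10353 genes in either direction. For the list, 50 genes (without nuclear replicate 1) and 48 (without nuclear replicate 2) still had an unadjusted p under 0.05.

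**Figure D1:**
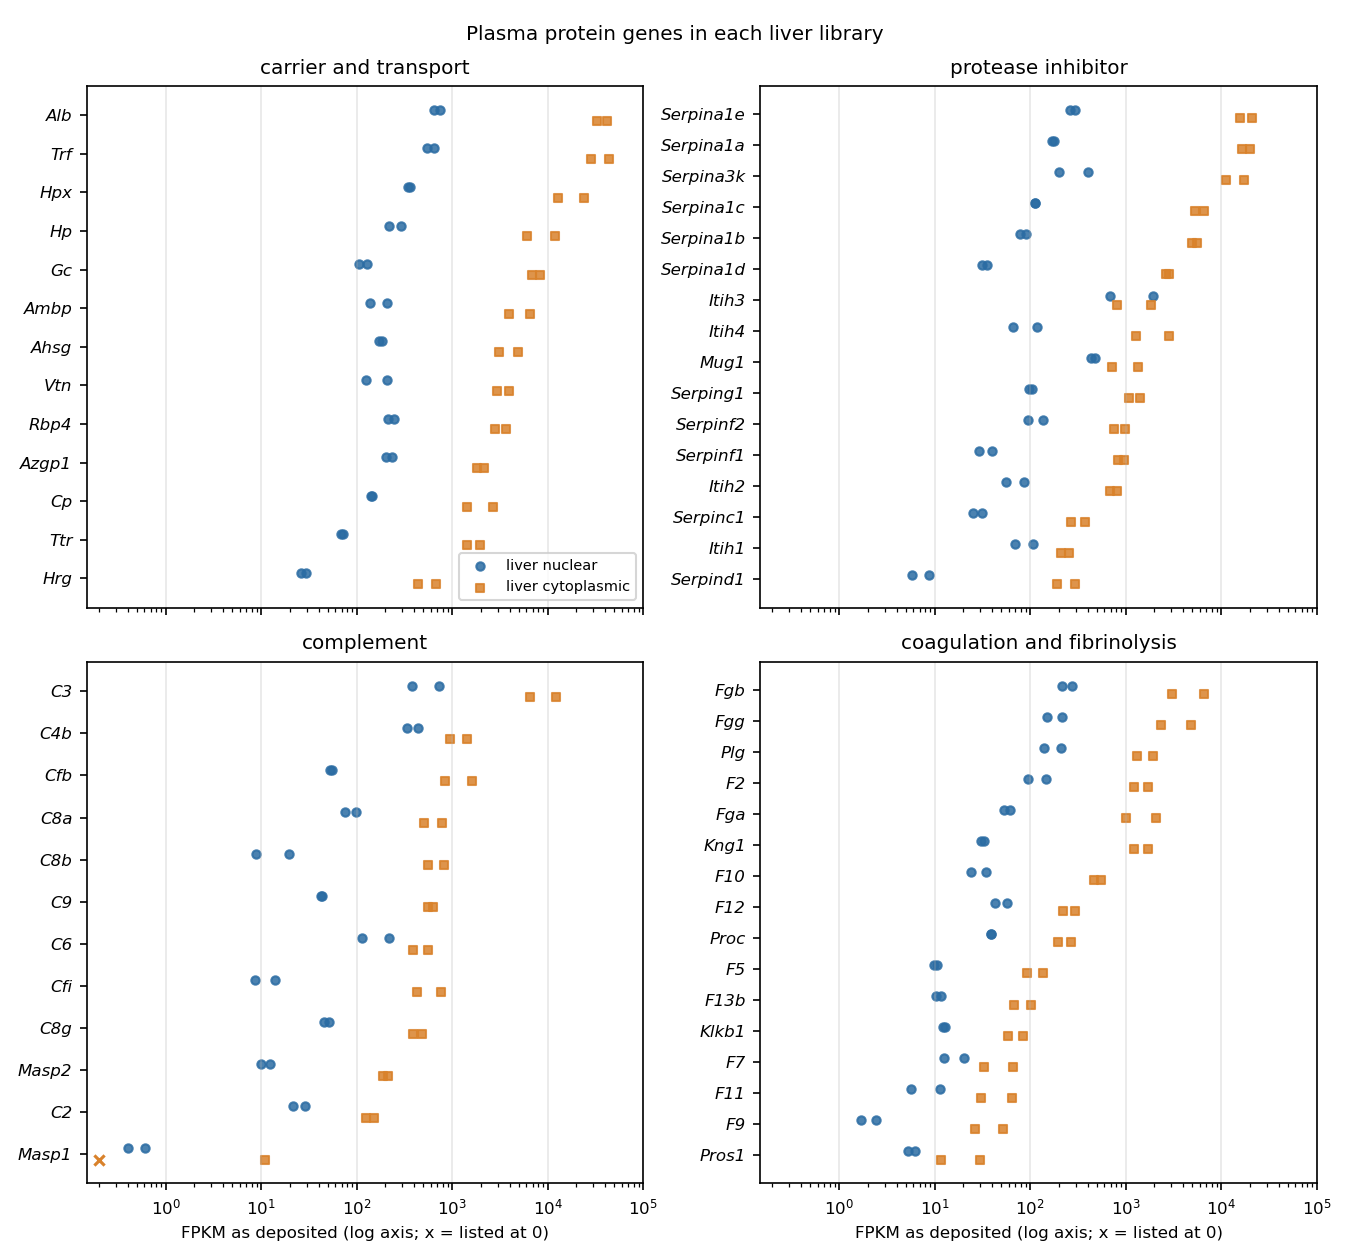
FPKM as deposited (log axis) of each plasma protein gene in the 2 liver nuclear libraries (blue circles) and the 2 liver cytoplasmic libraries (orange squares), by role. Most genes have nuclear points well to the left of the cytoplasmic ones; those of Itih3 overlap, and Masp1 is listed at 0 in 1 cytoplasmic library (cross).

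All 13 carrier and transport genes were lower in the nuclear libraries, with a median log2 ratio of -4.53. Alb, serum albumin, had 649 and 738 FPKM in nuclear liver, against 41591 and 32866 FPKM in cytoplasmic liver. The ratio was -5.74 (SE 0.43, adjusted p = 0.00346), and no value of 1 fraction reached the other. Alb ranked 27 and 7 among all genes in the nuclear libraries and 2 and 1 in the cytoplasmic libraries. Gc, the vitamin D binding protein, had 127 and 106 FPKM in nuclear liver, against 8350.0 and 6937 FPKM in cytoplasmic liver. At -6.02 (SE 0.43, adjusted p = 0.00346) its ratio was the lowest of the class. Trf, the iron carrier transferrin, had 647 and 541 nuclear against 43701 and 28683 cytoplasmic FPKM, a ratio of -5.90 (SE 0.46, adjusted p = 0.00346). About 79.8% of its 50-base words also occur in the annotated locus Gm20425, so the authors' counting could split its reads.

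The heme carrier Hpx and the hemoglobin carrier Hp followed at -5.62 and -5.09. The precursor of alpha-1-microglobulin and bikunin, Ambp, stood at -4.89, the thyroxine carrier Ttr at -4.53, fetuin A (Ahsg) at -4.45, vitronectin (Vtn) at -4.40, the histidine-rich glycoprotein Hrg at -4.25 and the retinol carrier Rbp4 at -3.80. Ceruloplasmin (Cp), a copper-carrying ferroxidase, stood at -3.75. Azgp1, zinc alpha-2-glycoprotein, had 236 and 203 FPKM in nuclear liver, against 2165 and 1832 FPKM in cytoplasmic liver. Its ratio of -3.18 (SE 0.43, adjusted p = 0.00493) was the highest of the class. Under median scaling 11 of the 13 were called lower; Cp stood at -1.28 (adjusted p = 0.0606) and Azgp1 at -0.72 (adjusted p = 0.168).

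The upstream sequences of Alb and Gc are shown because these 2 genes lie on the same chromosome and were among the lowest ratios of the list. Each is the 150 bases before the RefSeq start on GRCm38.p6, 5′ to 3′ on the gene's strand, at chr5:90460720-90460869, plus strand, for Alb and chr5:89457899-89458048, minus strand, for Gc. Capitals mark GTTAAT, the letters of a half-site of the liver factor HNF1.
Alb: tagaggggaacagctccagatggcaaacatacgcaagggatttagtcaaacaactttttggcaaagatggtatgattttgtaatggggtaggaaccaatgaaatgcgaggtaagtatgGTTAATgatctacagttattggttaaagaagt
Gc: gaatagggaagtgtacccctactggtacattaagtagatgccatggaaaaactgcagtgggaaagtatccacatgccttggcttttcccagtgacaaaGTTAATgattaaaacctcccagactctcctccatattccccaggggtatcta

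Of the 16 protease inhibitors, 14 were lower in the nuclear libraries and 2, Mug1 and Itih3, were not called; the median log2 ratio was -4.54. After median scaling 9 were called lower and 1, Itih3, higher, and the ratios of Mug1 and Itih1 were also above 0, at 1.34 and 1.03. Serpina1e, 1 of 5 mouse genes for alpha-1-antitrypsin, which blocks neutrophil elastase, had 294 and 262 FPKM in nuclear liver, against 20911 and 15747 FPKM in cytoplasmic liver. That gave a ratio of -6.03 (SE 0.44, adjusted p = 0.00346). Serpina1a had 168 and 177 FPKM in nuclear liver, against 19955 and 16388 FPKM in cytoplasmic liver, and its ratio of -6.71 (SE 0.42, adjusted p = 0.00346) was the lowest of all 57 genes. Serpina1d, Serpina1b and Serpina1c stood at -6.33, -5.93 and -5.71. The 5 copies share sequence: between 35.6% (Serpina1e) and 74.2% (Serpina1c) of their 50-base words occur in another gene, so values of single copies are uncertain. Of the summed Serpina1 FPKM, Serpina1a took 24.4% and 26.2% in nuclear and 35.7% and 36.3% in cytoplasmic libraries. Serpina1c took 16.4% and 16.6% in nuclear, against 11.8% and 11.9% in cytoplasmic libraries.

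The upstream sequences of the 5 copies are shown because the copies moved together. They share a run of 55 bases that holds GTTAAT, in capitals, and TGTTTGC, the core letters of a forkhead site. All are the 150 bases before the RefSeq start (GRCm38.p6, minus strand of chromosome 12), at chr12:103863620-103863769, chr12:103738190-103738339, chr12:103904951-103905100, chr12:103773634-103773783 and chr12:103956898-103957047 in the order given.
Serpina1a: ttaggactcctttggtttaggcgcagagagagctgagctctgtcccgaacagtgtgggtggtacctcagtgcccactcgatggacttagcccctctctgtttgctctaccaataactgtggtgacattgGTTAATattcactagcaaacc
Serpina1b: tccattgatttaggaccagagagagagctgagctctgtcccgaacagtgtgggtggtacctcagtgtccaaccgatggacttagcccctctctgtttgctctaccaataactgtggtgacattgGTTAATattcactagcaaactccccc
Serpina1c: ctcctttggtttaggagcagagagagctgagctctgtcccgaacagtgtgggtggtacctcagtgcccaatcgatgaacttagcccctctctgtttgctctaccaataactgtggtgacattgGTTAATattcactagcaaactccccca
Serpina1d: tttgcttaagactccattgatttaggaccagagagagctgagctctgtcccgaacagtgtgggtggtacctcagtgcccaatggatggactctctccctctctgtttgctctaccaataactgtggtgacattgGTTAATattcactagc
Serpina1e: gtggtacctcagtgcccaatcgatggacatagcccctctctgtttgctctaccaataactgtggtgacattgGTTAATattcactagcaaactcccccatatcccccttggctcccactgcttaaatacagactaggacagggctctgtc

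The other serpins were spread more widely. Serpina3k, of the antichymotrypsin family, stood at -5.63, heparin cofactor II (Serpind1) at -4.87 and pigment epithelium-derived factor (Serpinf1) at -4.66. The C1 inhibitor Serping1 stood at -3.60, antithrombin (Serpinc1) at -3.45 and alpha-2-antiplasmin (Serpinf2) at -2.90. All 6 were called. After median scaling the first 3 were still called lower, whereas Serping1 (-1.15, adjusted p = 0.0793), Serpinc1 (-1.02, adjusted p = 0.0706) and Serpinf2 (-0.44, adjusted p = 0.326) were not.

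Itih3 stood apart from the rest of the list. It encodes a heavy chain of the inter-alpha-trypsin inhibitors, which are passed onto hyaluronan in the extracellular matrix. It had 1953 and 691 FPKM in nuclear liver, against 1828 and 815 FPKM in cytoplasmic liver. The fractions overlapped, and the log2 ratio of -0.07 (SE 0.72, adjusted p = 0.939) was the highest of the 57. Itih3 was the most abundant or second most abundant of the list in the nuclear libraries, with 18.9% and 9.22% of the list's FPKM, and held 0.652% and 0.425% of it in the cytoplasmic libraries. Among all genes it ranked 9 and 8 in nuclear liver and 87 and 139 in cytoplasmic liver. After median scaling its ratio was 2.39 (adjusted p = 0.0322), the only gene of the list called higher there. Relative to the median of all genes it stood 1.57 above as deposited and 2.28 above after scaling.

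Its neighbours in the gene cluster on chromosome 14 had lower ratios, Itih4 far more so than Itih1. Itih4, a relative made as an acute-phase protein, ends 6.2 kb from Itih3 and had 117 and 66.3 FPKM in nuclear liver, against 2813 and 1298 FPKM in cytoplasmic liver. Its ratio was -4.42 (SE 0.59, adjusted p = 0.00495). Itih1, 5.4 kb to the other side of Itih3, had 107 and 69.2 FPKM in nuclear liver, against 254 and 212 FPKM in cytoplasmic liver, a ratio of -1.42 (SE 0.46, adjusted p = 0.0495). Like Itih3, Itih1 lay above the median of all genes on each scale. It lay 0.22 above as deposited, 0.91 after median scaling and 1.0 under estimated reads. Scaled to estimated reads, Itih1 was called higher, at 1.47 (limma adjusted p = 0.0356). Itih2, on chromosome 2, stood at -3.39. Within each library, Itih4 over Itih3 was -4.06 and -3.38 (log2) in nuclear and 0.62 and 0.67 in cytoplasmic liver, a contrast that no scaling between libraries changes. Of the summed FPKM of the 4 Itih genes, Itih3 took 86.3% and 78.3% in nuclear, against 32.0% and 27.1% in cytoplasmic libraries.

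The upstream sequences of the 3 neighbours are shown for this contrast. They are the 150 bases before the RefSeq start (GRCm38.p6) at chr14:30886326-30886475, plus strand, for Itih4, chr14:30923588-30923737, minus strand, for Itih3 and chr14:30943290-30943439, minus strand, for Itih1. Capitals mark ATTAAC, which is GTTAAT read on the other strand, in Itih1.
Itih4: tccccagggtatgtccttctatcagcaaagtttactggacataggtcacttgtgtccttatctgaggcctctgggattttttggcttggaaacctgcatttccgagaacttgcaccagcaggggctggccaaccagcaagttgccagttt
Itih3: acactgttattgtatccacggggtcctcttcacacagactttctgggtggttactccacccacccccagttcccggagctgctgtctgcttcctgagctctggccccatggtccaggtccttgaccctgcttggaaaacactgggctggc
Itih1: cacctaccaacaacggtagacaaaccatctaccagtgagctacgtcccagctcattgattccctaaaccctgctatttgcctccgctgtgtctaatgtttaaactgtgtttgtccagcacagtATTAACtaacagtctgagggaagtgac

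Mug1, a murinoglobulin that traps proteases like alpha-2-macroglobulin, was the other inhibitor that was not called. It had 433 and 476 FPKM in nuclear liver, against 1355 and 725 FPKM in cytoplasmic liver, a ratio of -1.13 (SE 0.50, adjusted p = 0.112). Both nuclear values lay below both cytoplasmic values. Mug1 took 4.18% and 6.35% of the list's FPKM in nuclear, against 0.483% and 0.378% in cytoplasmic libraries. Other annotated genes, foremost the pseudogene Mug-ps1, share 32.9% of its 50-base words.

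**Figure D2:**
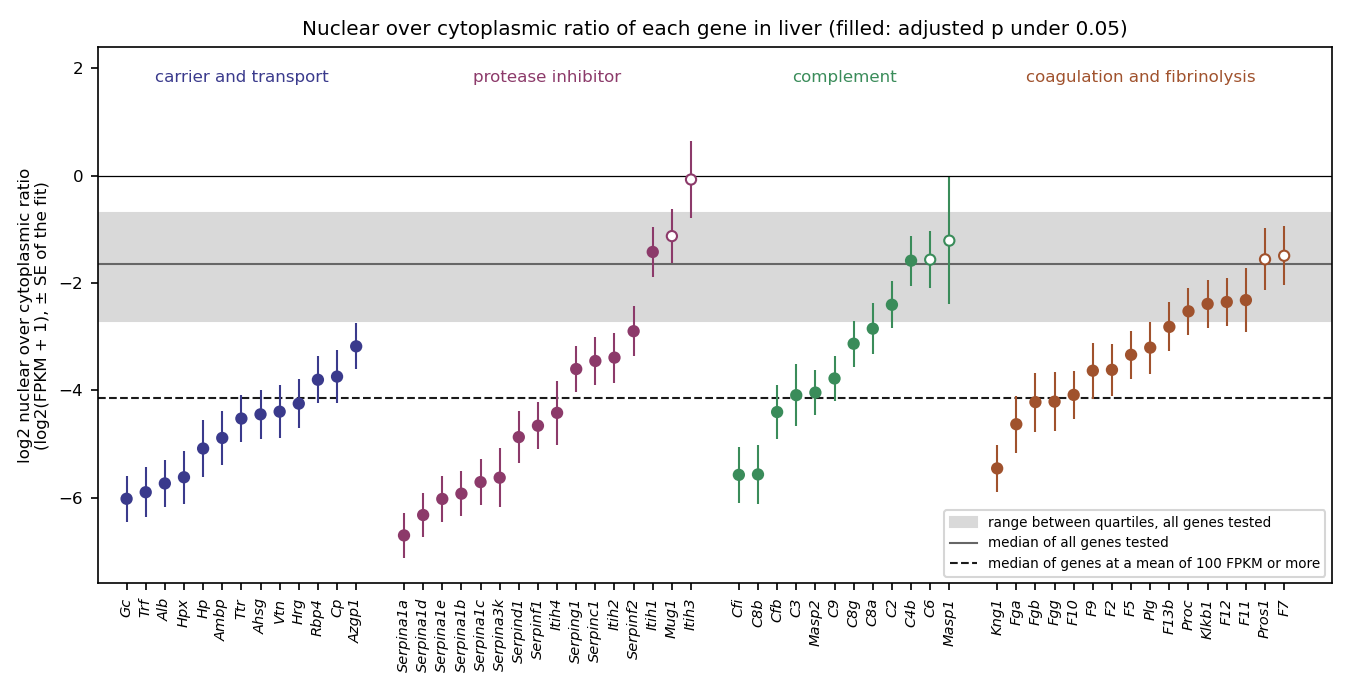
Log2 nuclear over cytoplasmic ratio in liver on log2(FPKM + 1), with the SE of the fit, for each plasma protein gene by role (filled points, adjusted p under 0.05). The grey band and line are the range between the quartiles and the median of all genes tested (-1.64), and the dashed line is the median of genes at 100 FPKM or more on average (-4.14). Ratios span -6.71 for Serpina1a to -0.07 for Itih3.

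Of the 12 complement genes, 10 were lower in the nuclear libraries and 2, C6 and Masp1, were not called, with a median of -3.46. After median scaling 5 were called lower and 0 higher, and the ratios of C6, C4b and C2 were above 0, at 0.89, 0.88 and 0.01. C3, the central protein that all complement routes cleave, had 728 and 377 FPKM in nuclear liver, against 12127 and 6603 FPKM in cytoplasmic liver. The ratio was -4.09 (SE 0.58, adjusted p = 0.00536), and the fractions lay far apart. Cfi, factor I, which degrades the active fragments of C3 and C4, had 13.9 and 8.65 FPKM in nuclear liver, against 756 and 431 FPKM in cytoplasmic liver. Its ratio of -5.58 (SE 0.52, adjusted p = 0.00346) was the lowest of the class. C4b, the mouse C4 of the classical and lectin routes, had 442 and 341 FPKM in nuclear liver, against 1439 and 943 FPKM in cytoplasmic liver. At -1.58 (SE 0.47, adjusted p = 0.0378) it was called lower as deposited. Scaled to estimated reads it was called higher, at 1.32 (limma adjusted p = 0.0437). Its relative C4a holds part of its sequence (35.2% of 50-base words shared). C4b ranked 44 and 39 among all genes in nuclear and 112 and 123 in cytoplasmic liver.

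Of the initiating proteases, Masp2 of the lectin route stood at -4.04. Masp1 was barely detected: it had 0.407 and 0.609 FPKM in nuclear liver and was listed at 0 and at 11.1 FPKM in cytoplasmic liver. With a ratio of -1.21 (SE 1.19, adjusted p = 0.422), the highest of the class, no direction could be given at this depth. C2 and factor B (Cfb), the paired proteases of the classical and alternative convertases, lie 0.1 kb apart and stood at -2.41 and -4.41, both called. After median scaling Cfb stayed called (-1.96, adjusted p = 0.0293) and C2 did not (adjusted p = 0.978). An annotated readthrough transcript covers both genes, with 58.0% and 81.4% of their 50-base words shared, so reads may have been split between them.

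The terminal components, which form the membrane attack pore, also differed among themselves. C9, whose copies line the pore, stood at -3.78 (SE 0.42, adjusted p = 0.00374), but after median scaling it was not called (adjusted p = 0.0533). C6 had 216 and 114 FPKM in nuclear liver, against 562 and 387 FPKM in cytoplasmic liver, a ratio of -1.57 (SE 0.53, adjusted p = 0.0551). Its fractions did not overlap, and it missed the threshold.

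C8 is built from 3 chains encoded by separate genes. C8b had 19.7 and 8.90 FPKM in nuclear liver, against 821 and 562 FPKM in cytoplasmic liver. C8a had 97.7 and 74.9 FPKM in nuclear liver, against 775 and 502 FPKM in cytoplasmic liver. C8g had 51.9 and 45.5 FPKM in nuclear liver, against 480 and 393 FPKM in cytoplasmic liver. All 3 chains were thus called lower on the deposited scale, at -5.57, -2.85 and -3.13. After median scaling only C8b stayed called, at -3.17 (adjusted p = 0.0122 in limma). C8a then stood at -0.40 (adjusted p = 0.373) and C8g at -0.69 (adjusted p = 0.182). C8a and C8b, 11.1 kb apart on chromosome 4, were nearly equal in cytoplasmic libraries but not in nuclear ones. C8b over C8a (log2) was -2.31 and -3.07 in nuclear, against 0.08 and 0.16 in cytoplasmic libraries. C8b took 11.6% and 6.88% of the chains' FPKM in nuclear and 39.5% and 38.6% in cytoplasmic libraries.

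The 2 genes that the list names by other symbols were in the table as well. Hc, which encodes complement C5, had 477 and 316 FPKM in nuclear liver, against 734 and 457 FPKM in cytoplasmic liver, a ratio of -0.58 (SE 0.50, adjusted p = 0.367). C1s1 had 92.9 and 81.0 FPKM in nuclear liver, against 327 and 252 FPKM in cytoplasmic liver, a ratio of -1.72 (SE 0.43, adjusted p = 0.0238). The fractions of Hc overlapped, and those of C1s1 did not. They do not enter the counts of the list.

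**Figure D3:**
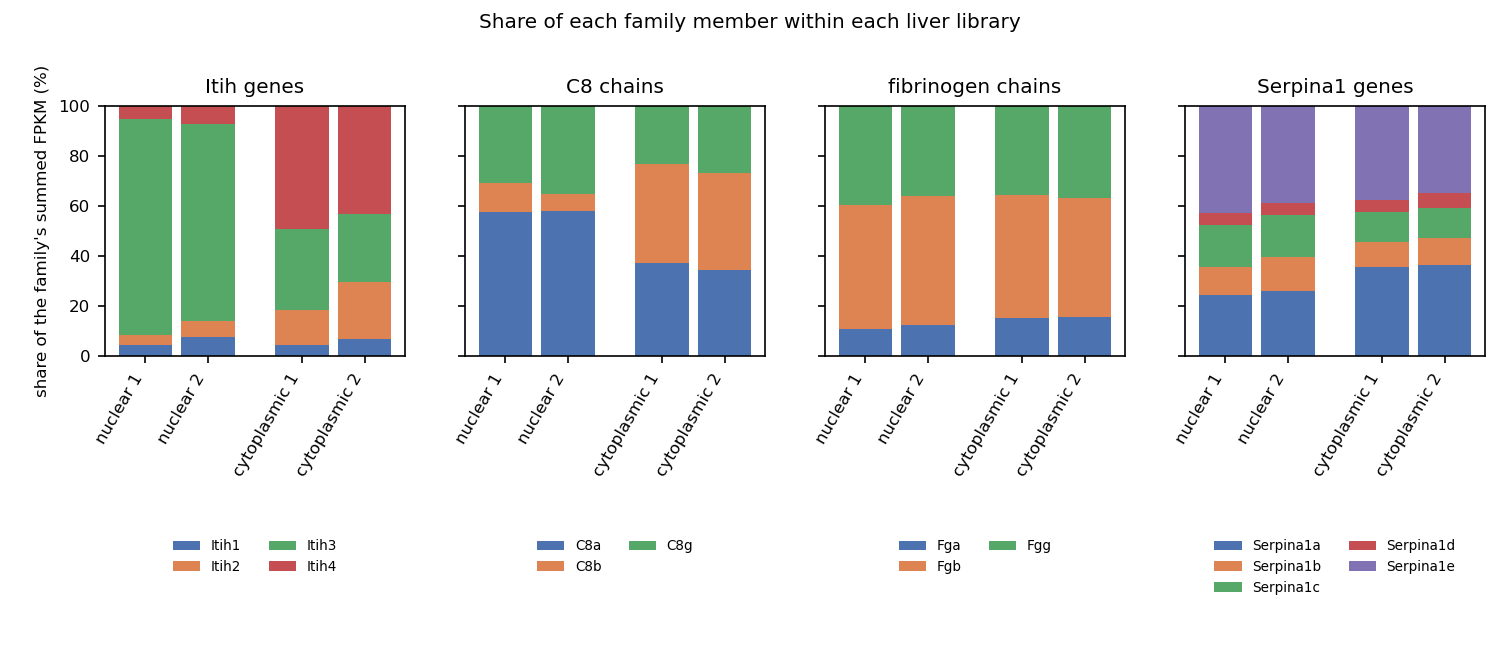
Share of each gene in the summed FPKM of its family (%), in nuclear libraries 1 and 2 and cytoplasmic libraries 1 and 2 of liver. Itih3 takes 86.3% and 78.3% of the Itih bar in nuclear libraries, against 32.0% and 27.1% in cytoplasmic ones; the fibrinogen bars differ little.

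Of the 16 genes of coagulation and fibrinolysis, 14 were lower in the nuclear libraries and 2, F7 and Pros1, were not called; the median ratio was -3.27. After median scaling 5 were called lower and 0 higher, and the ratios of F7, Pros1, F12 and F11 were above 0, at 0.88, 0.68, 0.09 and 0.01. The chains of fibrinogen, which thrombin cuts to form the clot, kept close to one another. Fgb, the beta chain, had 272 and 214 FPKM in nuclear liver, against 6627 and 3073 FPKM in cytoplasmic liver, and a ratio of -4.22 (SE 0.55, adjusted p = 0.00468). Fgg stood at -4.21 and Fga at -4.63. Fga took 11.1% and 12.7% of the summed FPKM of the 3 chains in nuclear, against 15.3% and 15.5% in cytoplasmic libraries. The neighbouring ratios in this cluster differed by at most 0.42.

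Kng1, the precursor of bradykinin, had 30.8 and 33.1 FPKM in nuclear liver, against 1709.7 and 1221 FPKM in cytoplasmic liver. At -5.46 (SE 0.44, adjusted p = 0.00346) its ratio was the lowest of the class, with 18.0% of its 50-base words shared, mostly with Kng2. Plasma prekallikrein (Klkb1), which releases bradykinin, stood at -2.39, and its neighbour F11, the contact factor next in the cascade, at -2.32. Reads of Klkb1 are uncertain, since 91.8% of its 50-base words lie in a second annotated gene of the same symbol that overlaps it. F12, which starts the contact route, stood at -2.35. All 4 were called lower, and after median scaling Kng1 alone of the 4 remained called.

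Among the vitamin K-dependent factors, prothrombin (F2) stood at -3.62, F10 at -4.09, F9 at -3.64 and protein C (Proc) at -2.53, all called. After median scaling only F10 of these stayed called (adjusted p = 0.0267). The adjusted p was then 0.0529 for F2, 0.0649 for F9 and 0.855 for Proc. F7, which starts the tissue factor route, had 20.2 and 12.5 FPKM in nuclear liver, against 65.4 and 33.1 FPKM in cytoplasmic liver. Its ratio of -1.49 (SE 0.55, adjusted p = 0.0693) was the highest of the class. F7 and F10 lie 1.5 kb apart, and their ratios differed by 2.59. Pros1, protein S, the cofactor of protein C, had 6.20 and 5.28 FPKM in nuclear liver, against 30.0 and 11.7 FPKM in cytoplasmic liver, a ratio of -1.56 (SE 0.58, adjusted p = 0.0709). In F7 and Pros1 both nuclear values lay below both cytoplasmic values. The cofactor F5 stood at -3.34, the factor XIII carrier subunit F13b at -2.82 and plasminogen (Plg), which dissolves clots, at -3.21, all called lower. None of these was called after median scaling, with adjusted p = 0.0936 for F5, 0.549 for F13b and 0.136 for Plg.

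Longer transcripts had ratios closer to 0. Across the 57 genes the ratio had a Spearman rho of 0.49 with the length of the longest annotated transcript, and of 0.41 over the 52 genes without the Serpina1 copies. Over 10282 genes tested in liver with an annotated length, rho was 0.21. Over the 762 of them with a mean of at least 100 FPKM it was 0.17. The 16 genes with a transcript of at least 3 kb had a median of -3.36, and the 41 shorter ones a median of -4.41. Length did not fix the order: C3 and Cp, both long, stood at -4.09 and -3.75, and F7, which is short, at -1.49. The exon number gave a rho of 0.47 over the list and 0.21 over all genes, and the span of the gene 0.26 and 0.06. Over the 762 genes of high mean, exon number gave 0.23 and span 0.12. These are descriptions across genes, which share libraries and are not independent. FPKM divides by length, and the part of length scaling or of RNA quality was not tested.

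**Figure D4:**
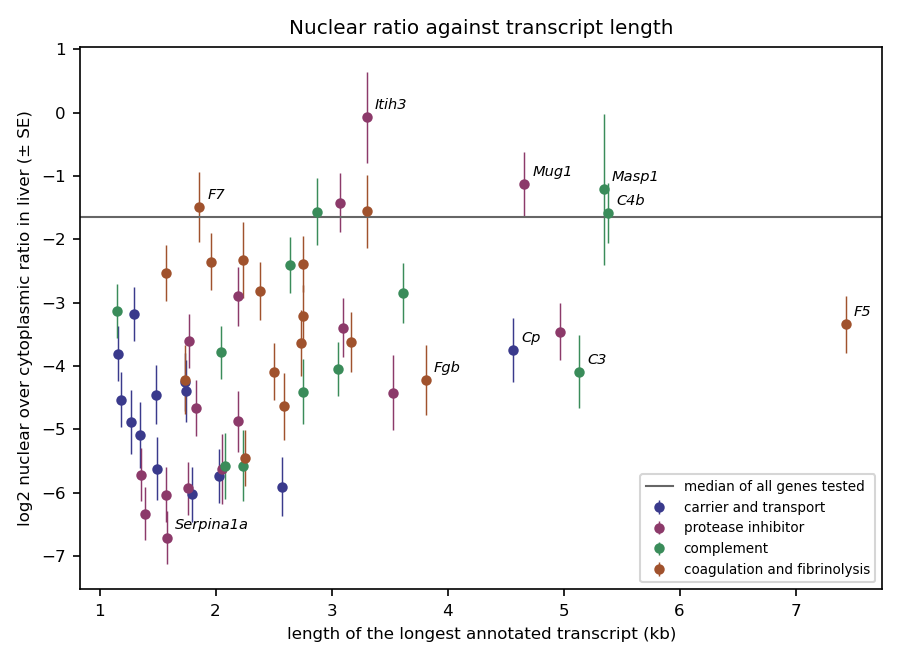
Log2 nuclear over cytoplasmic ratio in liver (with SE) against the length of the longest annotated transcript in kb, for the 57 plasma protein genes by role; the grey line is the median of all genes tested. Serpina1a is the lowest at -6.71, and Itih3 the highest at -0.07.

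A search of the 250 bases before the RefSeq start covered 44 of the 57 genes. GTTAAT, read on both strands, was present in 16 of them (36.4%), among them Alb, Gc, Fga, Fgb, C8a, C8b and all 5 Serpina1 copies printed above. Counted by gene symbol, with a match in any promoter of the symbol, it was present in 7.49% of all 27025 symbols. Of the symbols of genes tested in liver, 5.35% held it. TGTTTGC was present in 9 of 44 (20.5%), against 4.93% of all and 4.32% of those tested in liver. TTGNNCAA, letters bound by C/EBP proteins, was also present in 9 (20.5%), against 6.51% of all and 5.83% of those tested in liver. TTCNNNGAA, the spacing bound by STAT proteins, was present in 7 (15.9%), against 8.13% of all and 7.17% of those tested in liver. TATAAA was present in 4 (9.09%), against 14.3% of all but 8.3% of those tested in liver, which is close to the list. All were read on both strands and counted separately, so 1 stretch can match more than 1 motif. The 5 Serpina1 copies count as 5 although they share sequence. A match is a match of letters only. C8a and C8b both held GTTAAT although their ratios differed by 2.72.

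Of 52 tested genes of a wider list of complement, coagulation and secreted liver proteins, 43 were called lower in nuclear liver and 0 higher, with a median of -3.51, beside 50.2% and 2.93% of all genes tested. None of the 52 had an adjusted p under 0.05 with a positive ratio; Tfpi, the tissue factor pathway inhibitor, had the highest ratio of 1.40 (adjusted p = 0.143). After median scaling 25 were called lower and 2, Tfpi and Cd55, higher, beside 11.4% and 14.2% of all genes. As deposited, the lowest were Serpina6, the corticosteroid carrier, at -6.11, the acute-phase protein Orm2 at -6.06 and Serpina3n at -5.61.

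In MIN6 cells the plasma protein genes were low or listed at 0, in libraries where 3 reads on 2 kb would stand at 0.0778 to 0.183 FPKM. They took 0.0370% and 0.0137% of the summed FPKM in nuclear and 0.0763% and 0.0608% in cytoplasmic libraries. Of the 57 genes, 35 were listed at 0 in all 4 MIN6 libraries, 53 stayed below 1 FPKM in every one, and 4 (Ttr, Gc, Rbp4 and Serping1) were above 0 in all 4. Ttr and Gc alone averaged 1 FPKM or more over the 4 libraries and were tested. Ttr, which islets also make, had 4.30 and 2.24 FPKM in MIN6 nuclear libraries, against 27.4 and 23.9 FPKM in MIN6 cytoplasmic libraries. The ratio was -2.68 (SE 0.32, adjusted p = 0.00265). Gc had 3.40 and 1.14 FPKM in MIN6 nuclear libraries, against 15.3 and 12.01 FPKM in MIN6 cytoplasmic libraries, a ratio of -2.25 (SE 0.41, adjusted p = 0.00729). Both genes were lower in the nuclear fraction without overlap, as 46.1% of the 6017 genes tested in MIN6 were called lower; 11.8% were called higher. With 1 MIN6 library left out at a time, the 2 ratios lay between -3.04 (without nuclear replicate 1) and -1.73 (without nuclear replicate 2). The calls did not hold without either cytoplasmic library, fits that leave 1 library in that group. Of 7 genes of the wider list tested in MIN6, 3 were called lower and 2 higher. The lower ones were Clu, the chaperone clusterin, at -3.03, Serpina3n at -1.27 and fetuin B (Fetub) at -0.84. The higher ones were properdin (Cfp), which stabilises the alternative convertase, at 1.79 and Hgfac, the protease that activates hepatocyte growth factor, at 1.54. After median scaling 1 of the 7, Clu, was called lower and 2 higher, beside 25.8% and 28.0% of all genes; Serpina3n then stood at -0.73 (adjusted p = 0.0808) and Fetub at -0.23 (adjusted p = 0.507).

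The nuclear ratio of Gc and Ttr was lower in liver than in MIN6 on the deposited scale. The difference, tested as an interaction over 5315 genes measured in both, was -3.78 (SE 0.60, adjusted p = 0.0141) for Gc and -1.84 (SE 0.54, adjusted p = 0.0397) for Ttr. Of those genes 26.6% were called lower and 0.677% higher, and their median difference was -1.26. After median scaling the differences were -2.21 for Gc (adjusted p = 0.0753) and -0.36 for Ttr (adjusted p = 0.666), and neither was called; 0.433% of all genes were then called lower and 0.771% higher.

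**Figure D5:**
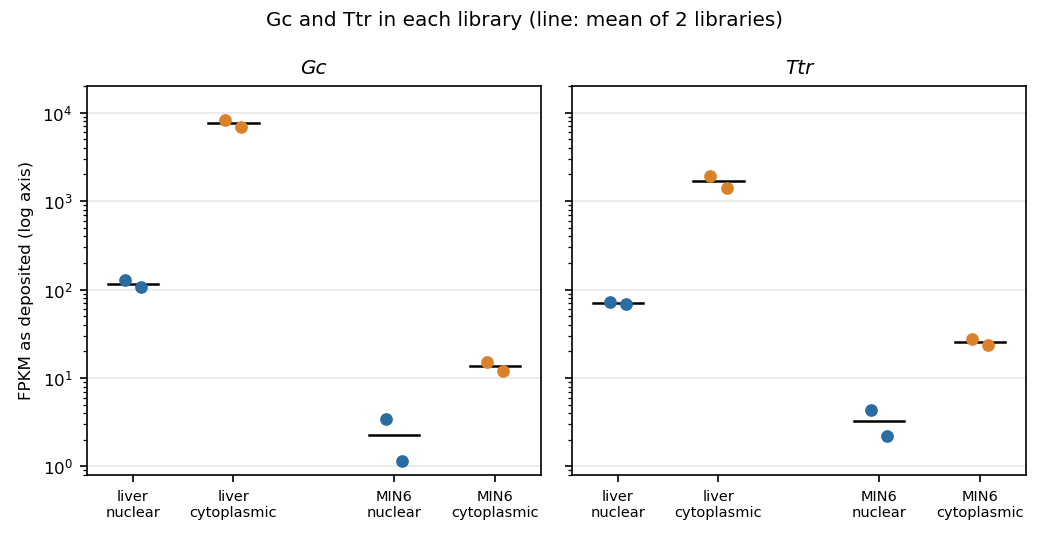
FPKM as deposited (log axis) of Gc and Ttr in each library of liver nuclear, liver cytoplasmic, MIN6 nuclear and MIN6 cytoplasmic RNA; the line is the mean of 2 libraries. Both genes are lower in nuclear than cytoplasmic RNA of each source, and higher in liver than MIN6 in each fraction.

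Between the sources, 56 of the 57 genes were called higher in cytoplasmic liver than in cytoplasmic MIN6 RNA, and all 56 genes tested were called higher in nuclear liver than in nuclear MIN6 RNA. On the deposited scale 68.3% and 52.4% of all genes tested were also called higher in liver, and after median scaling 20.5% and 27.4%. Most of the 57 entered the test through liver alone, where they are abundant, so these counts are a description. Masp1 was the gene not called, at 1.80 (SE 1.30, adjusted p = 0.281). Gc and Ttr, the best measured in both, were higher in liver by 9.03 (SE 0.30, adjusted p = 0.000695) and 5.96 (SE 0.32, adjusted p = 0.00101) in cytoplasmic RNA, and by 5.25 (SE 0.44, adjusted p = 0.00127) and 4.12 (SE 0.35, adjusted p = 0.00137) in nuclear RNA. The size depended on scale. Under median scaling Gc stood at 6.16 in cytoplasmic and 3.87 in nuclear RNA, and Ttr at 3.07 and 2.67. Under scaling to estimated reads Gc stood at 5.19 and 4.08, and Ttr at 2.09 and 2.75; both genes were called higher in liver on each scale.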

How the data were processed

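PolyA RNA of nuclear and cytoplasmic fractions of mouse liver and MIN6 cells was measured in 8 libraries, 2 per group. Per the submitters' processing notes, the authors used TopHat and Cuffdiff with build mm10; the sources used here give no version, annotation or filter. The authors deposited 1 table of FPKM values per gene; its header names no unit, and FPKM is taken from Cuffdiff, per the labels. The test was limma 3.58.1 (R 4.3.3) on log2(FPKM + 1), with group as the term, for genes that averaged 1 FPKM or more over the fitted libraries. Calls are two-sided, at a p under 0.05 after Benjamini-Hochberg adjustment over all genes tested. The fit was tested on simulated data. Read depth was estimated from ratios of values under 0.5 FPKM between libraries; floors are 3 reads on 2 kb and cover counting error only, and the depth limits the genes near them. Positions, lengths and shared 50-base words came from GENCODE M21 (GRCm38), and promoters from RefSeq (GRCm38.p6).

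The members and gene lists were chosen with earlier results of these data known. All 59 symbols may be named; library values are given for the gene with the highest mean and those with the highest and lowest liver ratio of each role, and for others where a comparison needs them, and of the wider list up to 3 called genes each way. Alternatives were median-of-ratios scaling, a pseudocount of 0.1, filters above 0 and at 10 FPKM, a replicate block and leaving out each library. Scaling to estimated reads, and the block with median scaling, were added after the data were seen. The 13 mitochondrial genes, all listed at 0, gave no check of the fractions.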

Additional observations from a re-analysis of the deposited data

Results flagged for a closer look

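The nuclear ratio of Gc differed between liver and MIN6 by -3.78 (log2, interaction in limma, SE 0.60, adjusted p = 0.0141), and that of Ttr by -1.84 (SE 0.54, adjusted p = 0.0397). Both drew attention because the test of the difference passed its threshold. In MIN6 the direction was the same as in liver, with both nuclear libraries below both cytoplasmic ones. With 1 library left out at a time, the 2 differences lay between -4.30 (without MIN6 nuclear replicate 2) and -1.49 (without MIN6 nuclear replicate 1). The calls did not hold in all of these fits, each of which leaves 1 library in a group. The median difference over all 5315 genes tested was -1.26. Neither gene was called after median-of-ratios scaling, where the differences were -2.21 and -0.36.

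On the deposited scale Ambp and C4b had opposite directions in the 2 sources. The test at a mean of 1 FPKM did not cover this difference, since both averaged less in MIN6. With genes above 0 kept, the interaction was -5.61 for Ambp (limma, SE 0.625) and -2.60 for C4b (SE 0.55). Under that filter 19 of the 22 list genes tested and 23.4% of 12015 genes were called lower. The 2 genes were chosen for their directions in these same values, so the interaction only describes them. With MIN6 values near 0 it largely repeats the liver ratio, -4.89 for Ambp and -1.58 for C4b. Ambp had 1.39 and 0.144 FPKM in MIN6 nuclear libraries and was listed at 0 in both MIN6 cytoplasmic libraries, a log2 ratio of 0.72 on log2(FPKM + 1). C4b had 2.13 and 0.692 FPKM in MIN6 nuclear libraries, against 0.299 and 0 FPKM in MIN6 cytoplasmic libraries, a ratio of 1.01. In liver both genes were called lower in the nuclear libraries as deposited. Ambp stayed called lower after median scaling and under estimated reads. C4b instead stood above 0 in liver, at 0.88 after median scaling (limma adjusted p = 0.0985) and 1.32 under estimated reads (limma adjusted p = 0.0437). On those scales its direction in liver was thus not lower. These values rest on an estimated 33.9 and 3.4 reads for Ambp and 220.9 and 69.0 reads for C4b in the 2 MIN6 nuclear libraries.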

How the results depend on the processing

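The count of liver genes called lower (51 of 57) stayed within 1.5 times under a pseudocount of 0.1, both filters, and the replicate block (53). It was 30 under median-of-ratios scaling, 22 under the replicate block with median scaling and 22 under scaling to estimated reads, with 1, 1 and 5 called higher, and 0 to 52 when 1 library was left out. The cause of each move was not tested. In MIN6, 5 of 22 list genes were called lower with the filter above 0, a share close to the 24.2% of 14130 genes tested. With the filter at 10 FPKM the 1 list gene tested was called lower, beside 57.1% of 793 genes. Members called higher in liver than MIN6 ranged from 0 to 57 (cytoplasmic) and 0 to 54 (nuclear) without 1 library. The interaction called 0 under median scaling, pseudocount 0.1, the block with median scaling and estimated reads. Its calls also did not hold in every fit with 1 library left out. With the filter above 0 it called 19 of 22 list genes lower, beside 23.4% of all genes tested. With the filter at 10 FPKM it called the 1 list gene tested lower, beside 52.2% of all genes tested. Ttr reversed to 0.66 under estimated reads. Without the 10 highest genes outside the list, its share of FPKM averaged 8.24% in nuclear and 26.4% in cytoplasmic liver and 0.0873% in cytoplasmic MIN6.

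Ratios in liver reversed sign as follows. Under median scaling, alone or with the block: Itih3 2.39, Mug1 1.34, Itih1 1.03, C6 0.89, F7 0.88, C4b 0.88, Pros1 0.68, F12 0.09, C2 0.01 and F11 0.01. Under estimated reads: Itih3 2.84, Mug1 1.78, Itih1 1.47, C6 1.33, F7 1.32, C4b 1.32, Pros1 1.11, F12 0.53, C2 0.45, F11 0.44, Klkb1 0.42, Proc 0.35, Masp1 0.04, C8a 0.04 and Serpinf2 0. Itih3, Mug1, Itih1, C6 and C4b were called higher there. Without 1 library, Itih3 ranged from -0.82 to 0.68 (0.51 without cytoplasmic replicate 1, 0.68 without nuclear replicate 2) and Masp1 from -3.01 to 0.59 (without cytoplasmic replicate 2). Differences between same-numbered libraries correlated at r = 0.043 in liver and 0.045 in MIN6, with 2 pairs in each, so the numbers were not taken to pair samples; the replicate block gave 53 genes lower. Genes near the floors, such as Masp1, are limited by depth.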

Other observations

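A few acute-phase genes were higher in both liver libraries numbered 1 than in those numbered 2; they were chosen after their values were seen. Itih3 was higher by 1.50 (log2) in the nuclear and 1.17 in the cytoplasmic pair of libraries, C3 by 0.95 and 0.88, and Itih4 by 0.81 and 1.12. Outside the list, serum amyloid P (Apcs) was higher by 1.44 and 2.23, Saa2 by 1.06 and 1.58, and Orm2 by 1.00 and 1.96. Not all genes of this kind did so: in the nuclear pair Crp differed by -0.17, Cfb by -0.10, Orm1 by 0.03 and Cp by 0.05. The median difference of all genes tested was 0.32 in the nuclear and 0.41 in the cytoplasmic pair, and 5437 of 10353 genes were higher in both. Across 44 genes of the wider list with a mean of at least 10 FPKM, the differences of the 2 pairs had a Pearson r of 0.54 (Spearman rho 0.51). Over the 57 genes r was 0.21, and over all 10353 genes tested it was 0.04. These are descriptions across genes that share 4 libraries. The labels do not say whether libraries with the same number share an animal.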
